A study of Mus musculus with 6 samples.

Results

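The genes described here encode 3 Id proteins (Id1, Id2 and Id3), 3 E proteins (Tcf3, Tcf4 and Tcf12) and 2 ZEB factors (Zeb1 and Zeb2). They were chosen by gene symbol. All 8 were found among the 23284 genes counted, and all 8 passed the filter on low counts that left 12951 genes for testing. RNA was sequenced from lymph node cells of C3H/HeJ mice, an inbred strain in which the autoimmune hair loss disease alopecia areata can arise. The sort took CD8 T cells (CD3+CD8+) that also carried CD44 and CXCR3, as antigen-experienced cells do. The first group was NKG2D+ and the second NKG2D-, where NKG2D is an activating receptor first known from natural killer cells, and each group had 3 libraries. The design text names 3 mice, and same-numbered libraries were taken as a pair from 1 mouse. The sources used here give no age, sex, treatment or disease state for the mice, and the sort alone defines the groups.

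E proteins are basic helix-loop-helix transcription factors that pair with each other and bind the E-box, a short DNA motif. Id proteins have the helix-loop-helix but lack the basic region that touches DNA, so an E protein paired with an Id protein cannot bind. ZEB factors are zinc-finger and homeodomain repressors that recognise E-box-like sites. In CD8 T cells Id2 and Zeb2 are known from effector cells, and Id3 and Zeb1 from memory cells and their precursors. Tcf3 here is the E2A gene, Tcf12 the HEB gene and Tcf4 the E2-2 gene. The unrelated factors Tcf7, Tcf7l1 and Tcf7l2 have rows of their own in the files.

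Because E-boxes are the sites on which this network acts, the 250 bases before the RefSeq start of Id2, Id3 and Zeb2 are shown, since these 3 genes passed the test between the populations. Capitals mark each match to CANNTG, the E-box. The Id2 stretch lies at chr12:25096093-25096342, the Id3 stretch at chr4:136143572-136143821 and the outermost of the 4 Zeb2 stretches at chr2:45117443-45117692 (RefSeq on GRCm38.p6). Id3 lies on the plus strand, and Id2 and Zeb2 lie on the minus strand.
Id2: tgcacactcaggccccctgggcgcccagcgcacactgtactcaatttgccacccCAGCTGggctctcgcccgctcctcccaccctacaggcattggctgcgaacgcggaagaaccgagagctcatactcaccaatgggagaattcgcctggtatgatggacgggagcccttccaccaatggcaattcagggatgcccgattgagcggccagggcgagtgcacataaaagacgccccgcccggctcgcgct
Id3: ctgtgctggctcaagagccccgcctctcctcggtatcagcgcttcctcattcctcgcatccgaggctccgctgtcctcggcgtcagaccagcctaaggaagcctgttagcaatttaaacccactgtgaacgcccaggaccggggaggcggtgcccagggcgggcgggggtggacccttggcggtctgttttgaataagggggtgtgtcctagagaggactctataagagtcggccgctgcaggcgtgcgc
Zeb2: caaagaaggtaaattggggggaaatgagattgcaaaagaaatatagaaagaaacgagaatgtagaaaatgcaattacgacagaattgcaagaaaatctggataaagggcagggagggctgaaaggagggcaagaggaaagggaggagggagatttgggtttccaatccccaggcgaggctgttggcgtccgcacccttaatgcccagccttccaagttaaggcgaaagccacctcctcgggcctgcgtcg
The Id2 stretch held 1 match, CAGCTG, a form that E-protein dimers are known to bind, beginning 196 bases before the start. No CANNTG was found in the Id3 stretch or in any of the 4 Zeb2 stretches. Of 32851 stretches of this length, 66.2% held CANNTG on either strand and 13% held CAGCTG. The forms known for ZEB binding, CAGGTG and its complement CACCTG, are included in CANNTG and were in 17.2% of them and in none of the stretches of these 3 genes. A match is a description of letters and not of a bound site.

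Gene counts per library ran from 63232698 to 89184611 in NKG2D+ and from 41168816 to 67315805 in NKG2D- cells, and levels are given as CPM, a gene's count scaled to a common library size with TMM factors. Klrk1, which encodes NKG2D, stood at 409, 312 and 342 CPM in NKG2D+ libraries 1, 2 and 3 and at 34.5, 37.1 and 36.1 CPM in NKG2D- libraries 1, 2 and 3. Cd3e, a T-cell receptor chain, lay between 403 and 502 CPM and the CD8 chain Cd8a between 1135 and 1934 CPM over the 6 libraries, so these T-cell transcripts were present in all of them. Cd44, an adhesion receptor gene of the shared gate, did not overlap between the groups, at 430, 177 and 224 CPM in NKG2D+ against 137, 136 and 133 CPM in NKG2D- libraries (log2 fold change 1.03, edgeR adjusted p = 0.130, DESeq2 adjusted p = 0.00521). Its gap was largest in pair 1 and smallest in pair 2, as were those of Id2 and Zeb2. Among the marker lists of other cells, summed B-cell markers were 597, 389 and 433 CPM in NKG2D+ and 109, 280 and 237 CPM in NKG2D- libraries 1, 2 and 3. Of these sums Cd22 alone gave 147, 200 and 207 CPM against 58.0, 113 and 115 CPM. Within NKG2D+ cells Cd22 was lowest in library 1, where the other markers of the list were highest.

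Id2 and Zeb2 rose and Id3 fell in NKG2D+ cells, while the E-protein genes and Zeb1 did not pass the test. That is 3 of 8 genes at an adjusted p under 0.05 by edgeR's quasi-likelihood test, against 2.02% of all genes tested. With the libraries paired by replicate number as a block, 1 of the 8 passed, Id3, against 0.525% of all genes, and Id2 (adjusted p = 0.0836) and Zeb2 (adjusted p = 0.0931) did not. These are bulk libraries, so fewer cells of a type and less RNA per cell cannot be told apart. For 6 of the 8 genes the CPM ranges of the populations did not overlap, which held for 29.1% of all genes tested. Of these, Id2, Tcf4 and Zeb2 were higher and Id3, Tcf12 and Zeb1 lower in NKG2D+ cells.

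**Figure D1:**
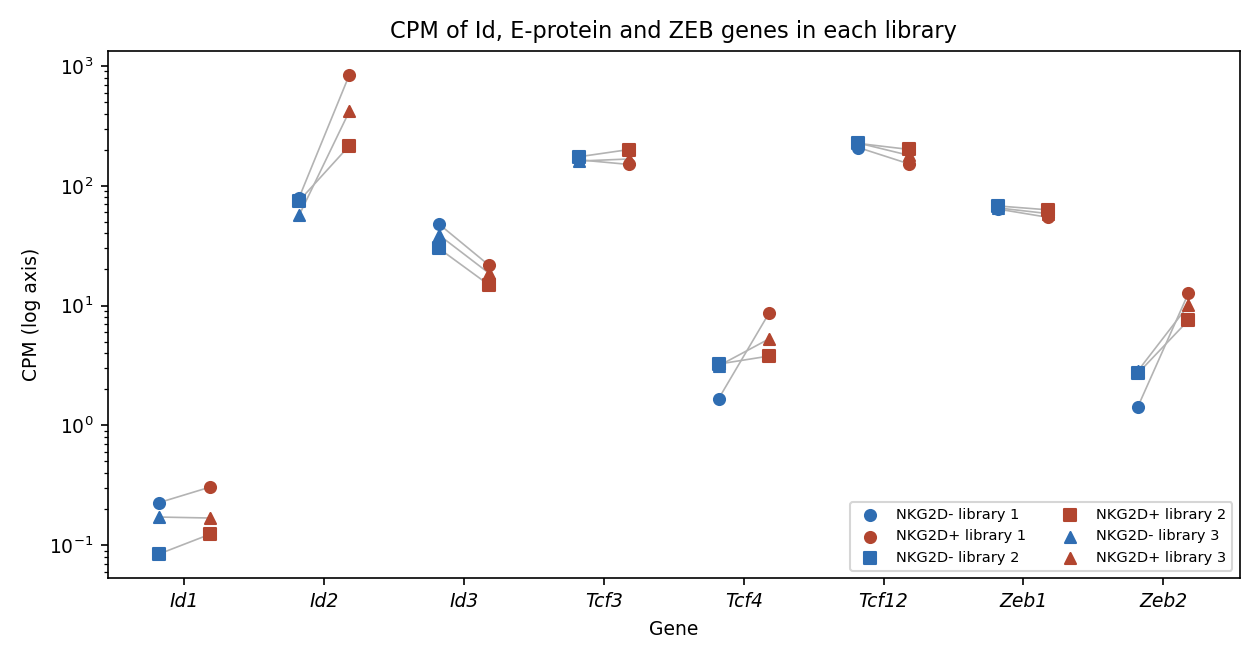
CPM of each gene on a log axis in the 3 NKG2D- (blue) and 3 NKG2D+ (red) libraries, with lines joining same-numbered libraries and a marker shape for each number. Id2 and Zeb2 lay higher in every NKG2D+ library and Id3 lower, while Tcf3 and Id1 overlapped.

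Among the Id genes, Id2 encodes the inhibitor that is prominent in effector T cells and innate lymphocytes. It stood at 845, 216 and 420 CPM in NKG2D+ libraries 1, 2 and 3 and at 79.5, 74.7 and 56.6 CPM in NKG2D- libraries 1, 2 and 3. Every NKG2D+ library lay above every NKG2D- library, and the NKG2D+ libraries differed far more among themselves than the NKG2D- libraries did. The means were 494 ± 321 against 70.3 ± 12.1 CPM (SD, n = 3), a 7.03-fold difference (log2 fold change 2.81, SE 0.48, edgeR adjusted p = 0.0433). Within pairs it was 10.6-fold in pair 1, 2.90-fold in pair 2 and 7.42-fold in pair 3. The difference missed the threshold with the replicate number as a block (log2 fold change 2.62, adjusted p = 0.0836, and 2.74e-05 to 1.00 over all alternatives). Without NKG2D+ library 1, the highest, it passed at 2.18 (edgeR adjusted p = 0.0452), in a fit that called 424 of all genes higher and 119 lower. Without NKG2D+ library 3 it did not (2.92, adjusted p = 0.124), in a fit that called 11 of all genes higher and 4 lower.

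Id3, the Id gene linked to naive and memory T cells, went the other way. It stood at 21.6, 14.8 and 18.6 CPM in NKG2D+ and 47.9, 30.0 and 38.9 CPM in NKG2D- libraries 1, 2 and 3. Each NKG2D+ library lay below each NKG2D- library, and in both populations library 1 was the highest and library 2 the lowest. The means were 18.3 ± 3.41 against 38.9 ± 8.97 CPM (SD, n = 3), 2.12-fold lower in NKG2D+ cells (log2 fold change -1.09, SE 0.20, edgeR adjusted p = 0.0498). The log2 differences of the pairs were close to each other, at -1.15, -1.02 and -1.07. With the replicate number as a block the SE was 0.06 and the adjusted p 0.0158, and Id3 was the 1 gene of the 8 to pass, lower in NKG2D+ cells, as did 0.0849% of all genes (0.525% in either direction). Without the block, RLE factors (adjusted p = 0.0521) or library totals (adjusted p = 0.0535) in place of TMM ended the call, and adjusted p ran from 2.07e-05 to 1.00 over all alternatives.

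Id1 was at the edge of detection, with 20, 11 and 13 counts in NKG2D+ and 9, 5 and 11 counts in NKG2D- libraries 1, 2 and 3. These are 0.123 to 0.304 CPM and 0.0845 to 0.227 CPM, which overlapped. Its log2 fold change was 0.31 (SE 0.52, 95% interval -0.92 to 1.55, edgeR adjusted p = 0.785), so at this depth a 2-fold rise could not be told from no difference. A 2-fold fall lay just outside that interval. Id4, the remaining gene of the family and not among the 8, had 0, 6 and 0 counts against 2, 2 and 0.

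**Figure D2:**
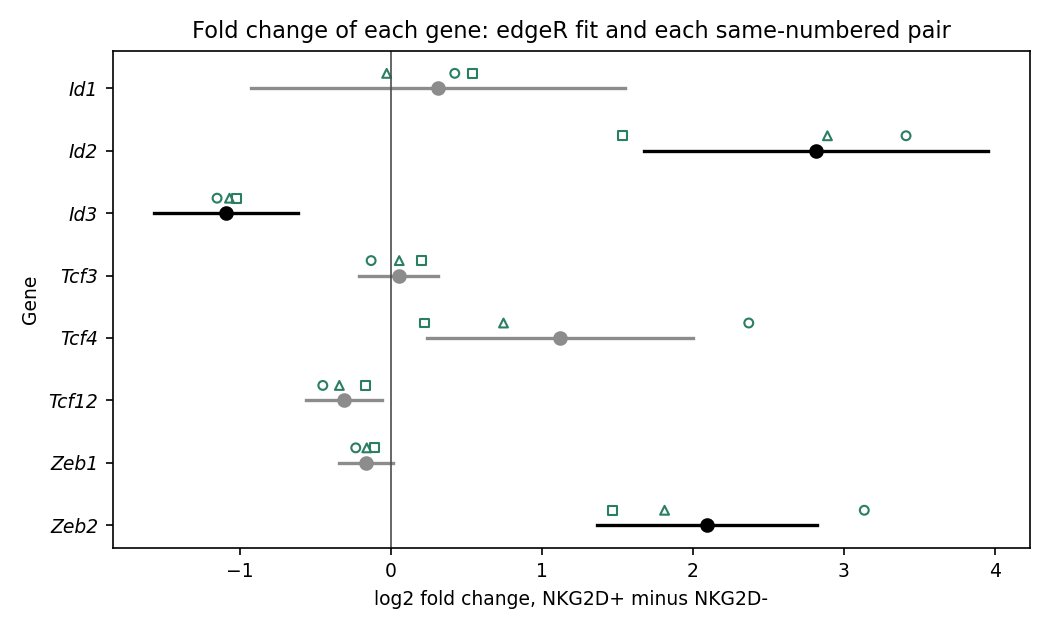
Log2 fold change of each gene, NKG2D+ minus NKG2D-, as filled circles with 95% intervals from the edgeR fit (black where the adjusted p was under 0.05), and the log2 difference in pairs 1 (open circle), 2 (square) and 3 (triangle). The pairs of Id3 lay between -1.15 and -1.02, while those of Id2 ran from 1.53 to 3.41.

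Of the E-protein genes, Tcf3 and Tcf12 were both well expressed. Tcf3 stood at 151, 201 and 167 CPM in NKG2D+ and 165, 175 and 161 CPM in NKG2D- libraries 1, 2 and 3, with overlapping groups. The log2 fold change was 0.05 (SE 0.11, 95% interval -0.21 to 0.31, edgeR adjusted p = 0.831), and the pairs went in both directions. Tcf12 stood at 153, 201 and 180 CPM in NKG2D+ and 208, 226 and 227 CPM in NKG2D- libraries 1, 2 and 3. It was lower in all 3 pairs and the groups did not overlap, but the log2 fold change of -0.31 (SE 0.11, 95% interval -0.56 to -0.06) did not pass (edgeR adjusted p = 0.165). Without NKG2D+ library 2 alone it did pass, at -0.41 (adjusted p = 0.0457), in a fit that called 904 of all genes higher and 408 lower. Within NKG2D+ cells Tcf3, Tcf12 and Zeb1 were each lowest in library 1 and highest in library 2, the reverse of the order for Id2.

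Tcf4, which encodes the E protein of plasmacytoid dendritic cells and is also expressed in B cells, was a minor transcript. In NKG2D+ libraries 1, 2 and 3 its level was 8.59, 3.79 and 5.26 CPM, against 1.66, 3.25 and 3.13 CPM in the NKG2D- libraries of the same numbers. The groups did not overlap, although NKG2D+ library 2 lay only 1.17-fold above its partner while library 1 lay 5.17-fold above. The log2 fold change was 1.12 (SE 0.37, edgeR adjusted p = 0.155), and DESeq2 alone of the alternatives passed it (adjusted p = 0.0309, and 0.0309 to 1.00 over all alternatives). DESeq2 called 4 of the 8 genes, 3 higher and 1 lower, against 7.73% and 3.41% of all genes.

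The order of the 6 libraries by Tcf4 was the order by summed B-cell markers, from NKG2D- library 1 to NKG2D+ library 1. Zeb2 kept that order except between NKG2D- libraries 2 and 3 (2.72 and 2.85 CPM). With the mean log2 CPM of the B-cell marker list as a covariate, the log2 fold change of Tcf4 was 0.09 (SE 0.31). In the same fit Id2 stood at 2.23 (SE 0.82), Id3 at -0.87 (SE 0.33) and Zeb2 at 1.28 (SE 0.26), and all 4 missed the threshold (edgeR adjusted p = 0.611 for Zeb2 and 1.00 for the other 3). That fit called 2 genes higher and 0 lower of all 12951, so a lost call in it says nothing particular to these genes. All 10 B-cell markers were counted in every library, and all 10 had a positive log2 fold change (median 1.397). None passed the edgeR test (0 of 10), although 9 had an unadjusted p under 0.05. Over all 12951 genes tested, 6112 had a positive log2 fold change and 2731 an unadjusted p under 0.05. The marker sums, 389 to 597 CPM in NKG2D+ and 109 to 280 CPM in NKG2D- libraries, did not overlap between the groups. That covariate therefore cannot separate B-cell RNA from the population itself. The part of B-cell RNA in the difference of Tcf4 or Zeb2 was not tested.

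**Figure D3:**
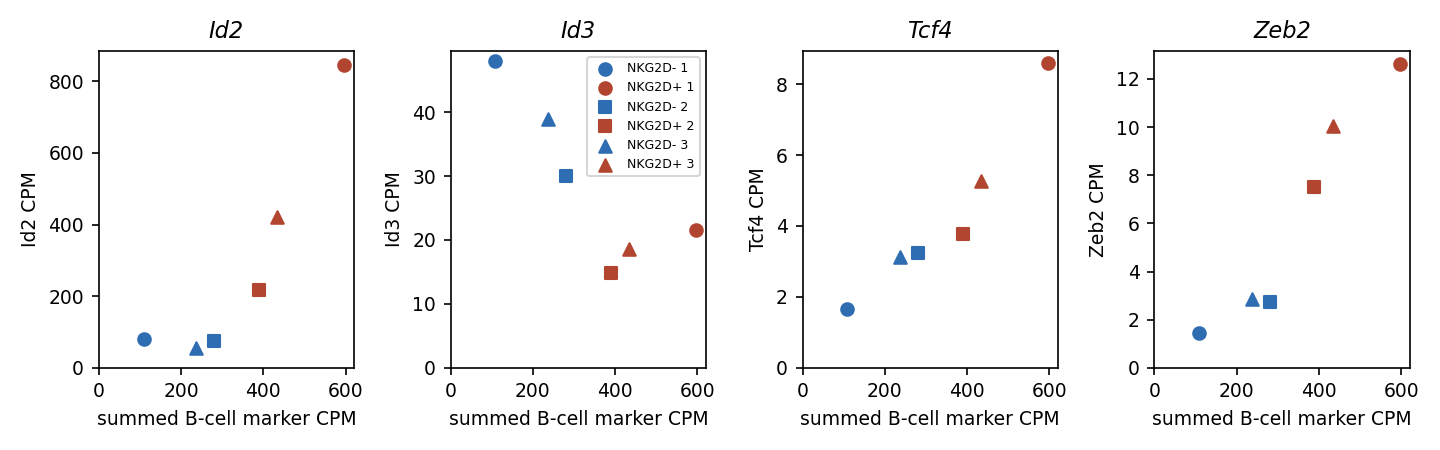
CPM of Id2, Id3, Tcf4 and Zeb2 against the sum over 10 marker genes of B cells, also in CPM, in the 3 NKG2D- (blue) and 3 NKG2D+ (red) libraries, with a marker shape for each replicate number. Tcf4 followed the order of the marker sum through all 6 libraries, from 1.66 CPM at a sum of 109 to 8.59 CPM at a sum of 597, and within the NKG2D+ libraries Id2 followed it too, at 216, 420 and 845 CPM for sums of 389, 433 and 597. Over the NKG2D- libraries, whose sums ran from 109 to 280, Id2 lay between 56.6 and 79.5 CPM without that order. Zeb2 kept the order of the sum except between NKG2D- libraries 2 and 3, at 2.72 and 2.85 CPM.

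Other marker lists were summed as well. The 10 plasmacytoid dendritic cell genes summed to 402, 327 and 369 CPM in NKG2D+ and 261, 299 and 303 CPM in NKG2D- libraries. Most of that came from genes that T or B cells also express, such as Bst2 and Runx2, while Siglech, the defining gene, lay at 0.426 to 1.24 CPM against 0.947 to 2.14 CPM. Of 16 myeloid and conventional dendritic cell markers 15 were in the files, with sums of 23.99 to 36.4 CPM against 14.7 to 20.8 CPM, and Emr1, Cd14 and Fcgr1 were at 0 counts in NKG2D- library 1. Of the 12 tested, 10 had a positive log2 fold change (median 0.83) and 0 passed. An unadjusted p under 0.05 was found for 5 of them, against 2731 of all 12951 genes tested. Itgax, which encodes the integrin chain CD11c, stood at 2.81, 4.29 and 3.87 CPM in NKG2D+ and 0.504, 1.52 and 0.717 CPM in NKG2D- libraries 1, 2 and 3, a 3.96-fold difference (edgeR adjusted p = 0.0666). That was the largest log2 fold change of this list (1.98). The 2 negative ones were of the dendritic cell genes Flt3 (-0.09) and Cd209a (-0.89). Myeloid cells express Zeb2 too, and their part in its difference was not tested. The sums were 687 to 886 against 538 to 592 CPM for 9 NK and innate lymphoid markers (chiefly Nkg7, a gene of cytotoxic T cells as well). For 5 plasma cell markers they were 55.7 to 144 against 49.3 to 55.2 CPM, chiefly Xbp1 and Irf4. Of the others, Sdc1 lay at 0.346 to 0.639 against 0.234 to 0.355 CPM and Igj at 0.760 to 3.19 against 0.529 to 3.15 CPM. Tnfrsf17 had means of 0.0101 and 0.0156 CPM. The 7 CD4 and regulatory T-cell markers summed to 62.3 to 187 against 88.3 to 100.3 CPM, with 3 positive and 4 negative log2 fold changes. Among them Foxp3 was lower, at 7.27, 2.45 and 4.94 against 20.8, 16.2 and 14.4 CPM (edgeR adjusted p = 0.0687, DESeq2 adjusted p = 2.00e-05). The 3 gamma-delta and NKT markers summed to 9.95 to 16.7 against 1.41 to 8.03 CPM (nearly all of it Blk, which is also in the B-cell list). For 7 stromal markers the sums were 53.4 to 59.5 against 69.5 to 72.0 CPM, chiefly Pecam1 at 47.7 to 51.0 against 67.4 to 68.8 CPM. Col1a1 and Col1a2 went the other way, with log2 fold changes of 1.42 and 1.14 (edgeR adjusted p = 0.0339 and 0.224).

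The ZEB genes differed from each other in the same comparison. Zeb2, a partner of T-bet in effector CD8 T cells, stood at 12.6, 7.52 and 10.03 CPM in NKG2D+ and 1.44, 2.72 and 2.85 CPM in NKG2D- libraries 1, 2 and 3. All NKG2D+ libraries were above all NKG2D- libraries, with 673 to 829 counts against 57 to 183. Means of 10.1 ± 2.55 and 2.34 ± 0.783 CPM (SD, n = 3) gave a 4.26-fold difference (log2 fold change 2.09, SE 0.31, edgeR adjusted p = 0.0300). It was 8.78-fold in pair 1, 2.76-fold in pair 2 and 3.51-fold in pair 3. With the replicate number as a block Zeb2 stood at 2.10 and missed the threshold (adjusted p = 0.0931, and 2.32e-09 to 0.611 over all alternatives). GENCODE M21 places Zeb2os, an antisense gene, at this locus, and without a known strand setting reads from the 2 genes cannot be told apart.

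Zeb1, linked to memory T cells, stood at 54.4, 62.9 and 58.5 CPM in NKG2D+ and 63.9, 67.8 and 65.3 CPM in NKG2D- libraries 1, 2 and 3. The groups lay just apart, with the lowest NKG2D- library only slightly above the highest NKG2D+ library. Its log2 fold change of -0.16 (SE 0.08, 95% interval -0.34 to 0.01) did not pass (edgeR adjusted p = 0.274), although all 3 pairs were lower, at -0.23, -0.11 and -0.16. An exact permutation test of CPM gave p = 0.1, the lowest that 3 against 3 libraries allow, for Id2, Id3, Tcf4, Tcf12, Zeb1 and Zeb2 alike, and p = 0.7 for Id1 and 0.8 for Tcf3 (two-sided). That test shuffled all 6 libraries and did not use the pairing by number.

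Leaving out libraries changed the calls of Id2, Id3 and Zeb2 without changing their direction. Each lost its call without NKG2D+ library 3 and without any single NKG2D- library. The edgeR adjusted p-values there were 0.124 to 0.221 for Id2, 0.0965 to 0.221 for Id3 and 0.109 to 0.154 for Zeb2. Without both libraries of pair 3 they were 0.557, 0.611 and 0.543. Over all genes tested, the settings with 1 of these libraries left out called 4 to 15 genes higher and 4 to 6 lower. Without pair 3 the counts were 0 and 0, so these lost calls say nothing particular to Id2, Id3 or Zeb2. Without pair 1 Id2 stood at 2.28 (adjusted p = 0.111), Id3 at -1.05 (0.0449) and Zeb2 at 1.65 (0.0233), all by edgeR.

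Scaled by exon length, the genes can be set beside each other as CPM per kilobase. In NKG2D+ cells Id2 came first at 203 ± 132, followed by Tcf3 at 53.9 ± 7.95, Tcf12 at 26.2 ± 3.58, Id3 at 14.3 ± 2.67, Zeb1 at 10.1 ± 0.731, Zeb2 at 0.878 ± 0.222, Tcf4 at 0.440 ± 0.184 and Id1 at 0.171 ± 0.0813 CPM per kilobase (SD, n = 3). In NKG2D- cells Tcf3 led at 52.0 ± 2.20, ahead of Tcf12 at 32.5 ± 1.55, Id3 at 30.5 ± 7.02 and Id2 at 28.8 ± 4.96, which did not differ beyond their spread, then Zeb1 at 11.3 ± 0.346. Zeb2 at 0.204 ± 0.0685, Tcf4 at 0.201 ± 0.0661 and Id1 at 0.139 ± 0.0618 CPM per kilobase were likewise within their spread. With the longest transcript in place of the union of exons, the order was the same in NKG2D+ cells, while in NKG2D- cells Id2 ranked second and Tcf4 above Zeb2.

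Ratios inside a library show how the balance within each family differed and do not depend on library scaling. Per kilobase, NKG2D+ libraries 1, 2 and 3 held Id2 at 20.5, 7.67 and 11.9 times Id3, and the NKG2D- libraries at 0.869, 1.31 and 0.763 times Id3. Id2 thus made up 88.4% to 95.3% of the Id signal in NKG2D+ libraries and 43.2% to 56.6% in NKG2D- libraries. Zeb2 to Zeb1 was 0.117, 0.0606 and 0.0869 against 0.0114, 0.0203 and 0.0222. Zeb1 remained the larger ZEB transcript in all 6 libraries, with Zeb2 at 5.71% to 10.5% of the ZEB signal in NKG2D+ and 1.13% to 2.17% in NKG2D- cells.

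In NKG2D+ libraries 1, 2 and 3 the summed Id signal per kilobase was 5.19, 1.09 and 2.36 times the summed E-protein signal. In the NKG2D- libraries it was 0.855, 0.616 and 0.641 times. With this scaling the ratio lay above 1 in every NKG2D+ library and below 1 in every NKG2D- library. Without division by length it did not, as NKG2D+ library 2 held 231 CPM of Id against 406 CPM of E-protein genes. The E-protein sum itself was 70.1, 92.5 and 79.0 against 82.2, 87.9 and 83.9 CPM per kilobase, and the groups overlapped. Tcf3 held 66.0% to 67.7% of that sum in NKG2D+ and 59.8% to 62.5% in NKG2D- cells, and Tcf4 under 1% in each library. These ratios are of RNA and carry no test.

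**Figure D4:**
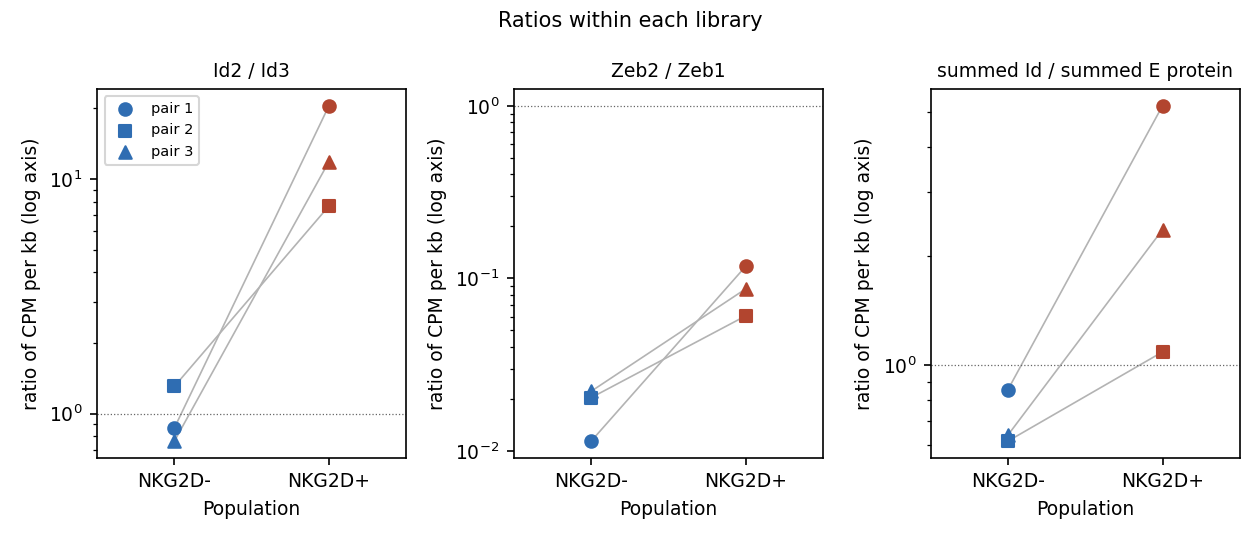
Ratio of CPM per kilobase within each library, on log axes, for Id2 to Id3, Zeb2 to Zeb1 and summed Id to summed E-protein genes. Lines join same-numbered libraries, and the dotted line marks a ratio of 1. Id2 to Id3 ran from 7.67 to 20.5 in NKG2D+ and from 0.763 to 1.31 in NKG2D- libraries.

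Around these genes, 5 lists of the network were counted in the same fit. Of 14 tested partners and cofactors of Id, E and ZEB proteins, 1 was higher and 0 lower (1.65% of all genes tested were higher and 0.363% lower), with a median log2 fold change of 0.13 against -0.01 over all genes tested. The gene was Bhlhe40, a basic helix-loop-helix repressor, at 64.8, 40.0 and 41.2 CPM in NKG2D+ and 22.3, 21.7 and 17.0 CPM in NKG2D- libraries 1, 2 and 3 (log2 fold change 1.26, SE 0.21, edgeR adjusted p = 0.0391, 0.0558 with the block). The corepressor Ctbp1, which ZEB factors recruit, had a log2 fold change of -0.00 (SE 0.09), and the E-protein coactivators Ep300 and Crebbp of 0.14 (SE 0.10) and -0.00 (SE 0.06).

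Among 19 genes upstream of Id and ZEB transcription, 1 was higher and 0 lower, with a median log2 fold change of 0.00. It was Prdm1, which encodes Blimp-1, a repressor known to act on Id3, at 48.6, 18.6 and 32.7 CPM in NKG2D+ and 7.43, 10.1 and 7.31 CPM in NKG2D- libraries 1, 2 and 3 (log2 fold change 2.01, SE 0.35, edgeR adjusted p = 0.0443, 0.104 with the block). Tbx21, which encodes T-bet, an activator of Zeb2, stood at 0.27 (SE 0.08, adjusted p = 0.126). Smad1, a transducer of the BMP signals that induce Id genes, stood at -0.50 (SE 0.11, adjusted p = 0.0746). Egr1, Egr2 and Egr3, which induce Id3 after receptor signals, stood at 0.33, -0.23 and 0.22, and their groups overlapped.

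In the list of 14 tested genes downstream of E and Id proteins in lymphocytes, 0 were higher and 1 lower, and the median was -0.03. Cxcr5, a follicular homing receptor gene that E proteins activate, stood at 43.4, 44.0 and 46.0 CPM in NKG2D+ and 67.1, 64.5 and 79.2 CPM in NKG2D- libraries 1, 2 and 3 (log2 fold change -0.66, SE 0.09, edgeR adjusted p = 0.0266, 0.0518 with the block). The memory factor gene Tcf7 stood at -0.60 (SE 0.16, adjusted p = 0.105) and the cytokine signalling inhibitor gene Socs3 at -0.82 (SE 0.20, adjusted p = 0.0917). Of the recombination genes that E proteins switch on in precursors, Rag2 had 0 counts in all libraries.

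In all, 7 genes known as ZEB targets for repression were tested, of which 1 was higher and 0 lower (median 0.67). Cdh1, which encodes E-cadherin, a classic target of both ZEB factors, stood at 67.7, 66.9 and 128 CPM in NKG2D+ and 7.76, 12.8 and 10.4 CPM in NKG2D- libraries 1, 2 and 3 (log2 fold change 3.08, SE 0.32, edgeR adjusted p = 0.0153), so it was higher in the libraries where Zeb2 was higher. Il2, the interleukin-2 gene and a target of Zeb1, stood at 3.16 (SE 0.81, adjusted p = 0.0957), and its levels were 3.79, 0.581 and 0.842 CPM against 0.140 to 0.237 CPM. Other epithelial targets of the list such as Epcam and Grhl2 were under 2 CPM throughout.

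Next, 6 genes that depend on Zeb2 in effector CD8 T cells were tested, and 3 were higher and 0 lower (median 2.75). The fractalkine receptor gene Cx3cr1 (log2 fold change 5.58) and the granule protease genes Gzma (5.69) and Gzmb (4.30) passed, while the perforin gene Prf1 stood at 0.11 (SE 0.11) and the egress receptor gene S1pr5 at 1.21 (SE 0.53, edgeR adjusted p = 0.257). Klrg1, the receptor gene most often used to mark Zeb2-dependent terminal effectors, was at 0.0507 to 0.359 CPM in all 6 libraries, with a log2 fold change of 0.35 (SE 0.67, adjusted p = 0.813). The lists were drawn up with results of these data known, and their counts are a description.

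**Figure D5:**
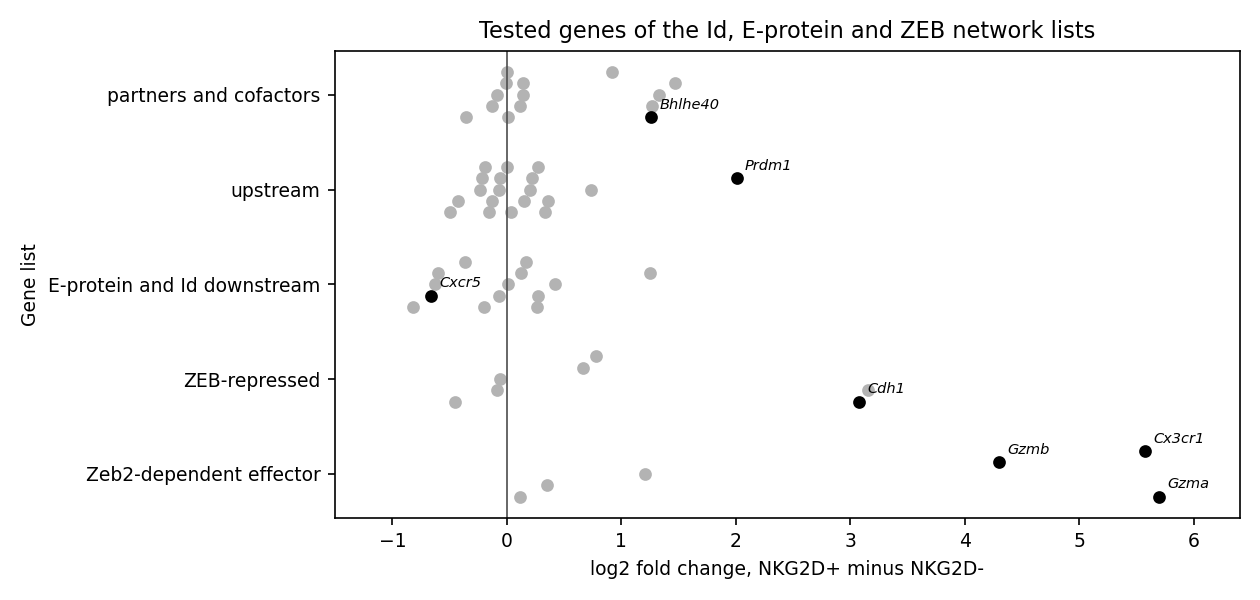
Log2 fold change, NKG2D+ minus NKG2D-, of each tested gene of 5 network lists, with genes at an edgeR adjusted p under 0.05 in black and named; the vertical position within a list has no meaning. Most genes of the first 3 lists lay within 1 log2 unit of 0, and the named genes ran from -0.66 for Cxcr5 to 5.69 for Gzma.

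The genes whose log2 CPM was most like that of a member over the 6 libraries were found by Pearson's r among 9626 tested genes whose mean reached 5 CPM in 1 population or both. With so many genes and only 6 libraries, an r near 1 is to be had for any gene, and these are descriptions. For Id2 they were Gm8615 (r = 1.00), S100a4, which encodes a calcium-binding protein of effector T cells (r = 0.999), and Pip4k2c (r = 0.999). S100a4 had a log2 fold change of 3.45 (edgeR adjusted p = 0.0364), and both Gm8615 and S100a4 were again among the 3 most like Id2 when deviations from the group means were used (r = 0.998 and 0.997). For Id3 they were Dusp10, Cnot8 and Creld1 (r = 0.995, 0.994 and 0.992), and for Zeb2 Osbpl3, Dynlt3 and 5730419I09Rik (r = 0.997, 0.996 and 0.995). Osbpl3, an oxysterol-binding protein gene, stood at a log2 fold change of 1.94 (adjusted p = 0.0269).

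Tcf3 was most like 1300010F03Rik, Ssbp4 and Acap3 (r = 0.992, 0.989 and 0.984), Tcf12 most like Tlr1, Snhg1 and Mcph1 (r = 0.999, 0.998 and 0.998) and Zeb1 most like Arhgap15, Top1mt and Acy1 (r = 0.999, 0.997 and 0.996). None of these 9 genes passed the test between the populations.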

How the data were processed

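The deposited values are raw counts of reads, listed by gene symbol for each library and left unnormalised by the authors. CASAVA 1.8.2, TopHat2 2.0.4 and genome mm9 are named in the submitters' processing notes, and the sources used here do not give the counting program, annotation or strand setting. The 5 summary entries of each file (for example 19.7% to 26.2% of reads aligned to several places) were left out of library sizes. Counts were tested in R 4.3.3 with edgeR 4.0.16 (TMM, filterByExpr with a minimum count of 10 and a total of 15, robust legacy quasi-likelihood F-test, group as the only term), with Benjamini-Hochberg adjustment over 12951 genes and a threshold of 0.05. SE is the log2 fold change divided by the square root of F, and 95% intervals are unadjusted. DESeq2 1.42.0 and limma-voom (limma 3.58.1) were alternatives.

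Same-numbered libraries correlated in their deviations from the group means (r = 0.21, 0.16 and 0.28 across genes, which are not independent replicates), all over 0.1, and the design names 3 mice, so the numbers were taken as pairs. File names give each pair 1 lane tag, so the effects of mouse and lane cannot be told apart. No library was a copy of another (chi-square per degree of freedom 40.7 to 235). Exon lengths and overlapping genes came from GENCODE M21 and stretches before gene starts from RefSeq, both on GRCm38 and not mm9, so no coordinate was joined to the counts. Stretches before genes on chromosome 18 (Tcf4 and Zeb1) were not used here.

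Members and lists (5 network and 9 marker lists) were chosen with earlier results of these data known. All members are named, and of each network list up to 4 called genes by smallest p, and the genes most like a member with at least 10 CPM in a group by Pearson's r of log2 CPM (prior count 2). Any further gene was picked for naming with its values in view.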

Additional observations from a re-analysis of the deposited data

How the results depend on the processing

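The log2 fold changes of Id2, Id3, Tcf4, Tcf12, Zeb1 and Zeb2 kept their direction under all 17 alternatives, and those of Id1 and Tcf3 under 15. Id1 reversed without NKG2D+ library 1 (-0.11) and NKG2D- library 2 (-0.0099), and Tcf3 without NKG2D+ library 2 (-0.068) and without pair 2 (-0.026). Over the settings that left out a library or a pair, they ran from 2.18 to 3.23 for Id2, -1.25 to -0.91 for Id3, 1.65 to 2.39 for Zeb2, 0.50 to 1.52 for Tcf4, -0.41 to -0.21 for Tcf12, -0.22 to -0.11 for Zeb1, -0.11 to 0.59 for Id1 and -0.07 to 0.14 for Tcf3. In those settings 0 to 2 members were called higher and 0 to 2 lower, against 0 to 904 and 0 to 408 of all genes. The log2 change of Id2 to Id3 ran from 3.32 to 4.03, of Zeb2 to Zeb1 from 2.00 to 2.55 and of summed Id to E proteins from 1.20 to 2.33.

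With limma-voom 0 members were called higher and 0 lower (Id2 2.64, Id3 -1.07, Zeb2 2.05), with 60 genes higher and 23 lower over all genes. With the replicate block, with libraries paired by number, 0 were higher (Id2 2.62, Zeb2 2.10) and 1 lower, with 57 and 11 over all genes. It changed no other member's call. Under the B-cell covariate 0 were higher and 0 lower (Id2 2.23, Id3 -0.87, Zeb2 1.28), with 2 and 0 over all genes. Without the filter 1 was called higher, Zeb2 (2.08, adjusted p = 0.0154), while Id2 (2.80, adjusted p = 0.105) was not. For Id3, 0 were called lower with the newer quasi-likelihood method (-1.09), RLE factors (-1.08) and library totals (-0.998). DESeq2 called Tcf4 (1.13) too, with 1001 genes higher and 441 lower. The causes were not tested. Leaving out a library leaves fewer samples, but the calls over all genes moved in both directions. They were 424 higher and 119 lower without NKG2D+ library 1, and 4 and 4 without NKG2D- library 3, against 214 and 47 with all 6 libraries. Depth limits Id1 alone among the 8, at 5 to 20 counts.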

Other observations

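Msc, a basic helix-loop-helix repressor gene of the partner list, did not pass the filter on low counts. It had 35, 3 and 36 counts in NKG2D+ libraries 1, 2 and 3 and 1 count in each NKG2D- library, a value named after it was seen. Lyl1 and Lmo2, partners of E proteins known from precursors and B cells, stood at 11.1, 4.75 and 4.65 CPM against 0.957, 4.01 and 2.34 CPM, and at 15.7, 6.13 and 9.22 CPM against 1.46, 6.41 and 4.38 CPM in libraries 1, 2 and 3. Both were highest in NKG2D+ library 1 and lowest in NKG2D- library 1, as the summed B-cell markers were, and neither passed (edgeR adjusted p = 0.201 and 0.232).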
